A study of Caenorhabditis elegans with 2 samples.

Results

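The genes described here are 10 protein-coding genes of *Caenorhabditis elegans* that build or act on meiotic chromosomes: the synaptonemal complex genes syp-1, syp-2, syp-3 and syp-4, the cohesin genes rec-8, coh-3 and coh-4, the chromosome axis genes him-3 and htp-3, and the crossover gene msh-5. They are 10 of the 19973 protein-coding genes in the annotation used (Ensembl WBcel235, release 115, the same assembly as ce11). They were chosen by their meiotic role with the ATTF-6 summits and region signals of these same data already known, so the binding values that follow describe them and support no test. Binding sites of ATTF-6, an AT-hook protein that binds DNA, were mapped by chromatin immunoprecipitation and sequencing in 1 group of 2 biological replicates. The worms were of strain RW12231, in which attf-6 carries a CRISPR insertion, st12231, that adds TY1, EGFP and 3xFLAG tags to the protein at its own locus. Both replicates were whole young adults collected at 64 h, with the labels recording starvation at the first larval stage after bleaching, and an antibody to GFP pulled down the tagged protein. The chromatin came from whole animals of 1 tagged strain, so the tissue in which a region was bound cannot be told apart. A control experiment named in the labels was not analysed here, and no wild-type or untagged group was compared.

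In meiotic prophase, sister chromatids are held by cohesin complexes and organised along a protein axis, homologous chromosomes pair and are joined along their length by the synaptonemal complex, and programmed DNA breaks are repaired, some of them as crossovers. SYP-1, SYP-2, SYP-3 and SYP-4 form the central region of the synaptonemal complex and depend on one another to load. REC-8, COH-3 and COH-4 are alternative kleisin subunits of meiotic cohesin, HTP-3 and HIM-3 are HORMA-domain proteins of the axis, and MSH-5 is the partner of HIM-14 (MSH-4) in the MutS complex that stabilises crossover intermediates. In adult hermaphrodites these proteins act in the germ line.

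Of the 10 genes, 7 held the summit of a region from the conservative joint list between 1000 bp upstream of the gene start and the gene end: syp-3, syp-4, rec-8, coh-3, coh-4, him-3 and msh-5. The same rule took in 6.35% of all protein-coding genes (1269 of 19973), and the members' count is a description, since the list was drawn up with it known. The conservative list holds 2134 thresholded regions from both replicates together, and its highest irreproducible discovery rate (IDR) was 0.01. In a joint list the IDR is the expected share of regions at or above a rank that would not repeat between replicates. Each replicate's own ranked list also carries IDR values, which are not read here as agreement between the 2 replicates. Each region carries the authors' signal value, which is higher for stronger enrichment and is used here only to order regions within a list; over the conservative list its median was 80.8, with quartiles of 64.9 and 113 and a highest value of 3469. The total number of reads is unknown, and no interval for counting error can be given. In 6 of the 7 genes the main summit lay upstream of the gene start, at 19 to 398 bp. A conservative summit within 1000 bp upstream of the start was found for 3.56% of all protein-coding genes. The main summit of him-3 lay inside the gene. For syp-1, syp-2 and htp-3 only the much longer joint ranked list of 79981 regions, which holds weak regions as well, had a summit in the window.

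**Figure D1:**
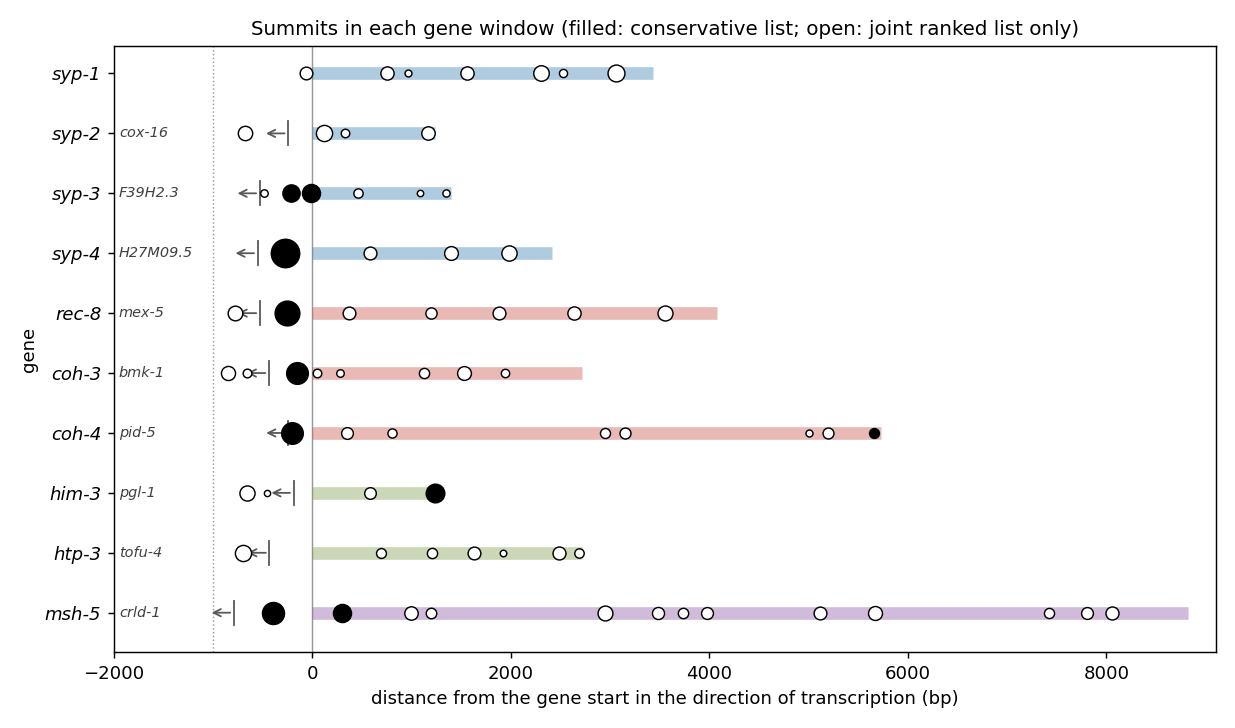
Map of the ATTF-6 summits in the 10 gene windows by distance from the gene start (bp, in the direction of transcription), with each gene drawn as a bar, a dotted line at 1000 bp upstream, larger circles for higher deposited signal, filled circles for the conservative list and open circles for the joint ranked list only. Arrows mark the start of a named neighbouring gene on the other strand within 2000 bp; in 6 genes the largest filled circle lies between that start and the gene's own start, and in him-3 it lies at the gene end.

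The synaptonemal complex genes ranged from the strongest region of the 10 genes to none in the conservative list. syp-4 (WBGene00019247), on chromosome I at 6847511 to 6849923 on the forward strand, had the strongest. Its region had a joint signal of 189, rank 233 of 2134, an IDR of 7.18e-05 and a summit at 6847238, 273 bp upstream of the gene start. In the replicates' own ranked lists its signal was 132 in replicate 1 and 70.0 in replicate 2, at ranks 196 and 405, and both replicates' own thresholded lists held it. The replicate summits lay 18 bp from the joint summit in replicate 1 and 199 bp in replicate 2. In replicate 2, 2 ranked regions overlapped the joint region. The values given are those of the stronger, which ended at 6847150 and so did not reach the joint summit. The summit of syp-4 lay inside an snRNA gene, H27M09.6, and an ncRNA gene, H27M09.7, on opposite strands, 65 bp from the start of H27M09.6. The nearest other protein-coding start, that of H27M09.5, was 279 bp away, so the summit stood nearly midway between both coding starts. A weaker region in an intron of syp-4, at 1982 bp, had a signal of 41.6 and an IDR of 0.0556 in the joint ranked list.

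syp-3 (WBGene00006377), on chromosome I at 8663045 to 8664445 on the reverse strand, held a pair of overlapping conservative regions in front of its start. The stronger had its summit at 8664464, 19 bp upstream of the gene start, with a signal of 63.9, rank 1634 and an IDR of 0.00183. The weaker had its summit 220 bp upstream, with a signal of 57.0 and rank 1833. In the replicates' own ranked lists the overlapping region had a signal of 34.4 in replicate 1, where its IDR was 0.711, and 43.7 in replicate 2, where its IDR was 0.00747. Replicate 2's thresholded list thus held the region and replicate 1's did not. The replicate 1 region ran from 8664522 to 8664825 and so did not reach the stronger joint summit. Its own summit, at 8664674, stood 210 bp from the stronger joint summit and close to the weaker, at 8664665. The replicate 2 region, from 8664367 to 8664636, held the stronger joint summit and not the weaker. Both conservative regions overlapped these same replicate regions and had the same IDR of 0.00183. The next coding gene upstream, F39H2.3, starts 512 bp from the stronger summit.

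syp-1 (WBGene00006375), on chromosome V at 16404274 to 16407701, and syp-2 (WBGene00006376), on chromosome V at 5536487 to 5537717, both on the forward strand, had no conservative region. The strongest joint ranked region of syp-1 had a signal of 54.1 at rank 2929 and an IDR of 0.0318, with its summit in an exon 3056 bp after the gene start and 371 bp before the gene end. Its signal was 29.6 in replicate 1 and 22.4 in replicate 2, with IDR values of 0.312 and 0.653. The strongest joint ranked region of syp-2 had a signal of 48.7 at rank 3966 and an IDR of 0.0360, with its summit in an exon 118 bp after the gene start. Its signal was 32.9 in replicate 1 and 21.5 in replicate 2, with IDR values of 0.0704 and 0.391. Neither replicate's thresholded list held either region. Only a weak region, with a signal of 25.3 and an IDR of 0.534, had its summit upstream of syp-1, 65 bp from the start.

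The axis genes also differed from one another. him-3 (WBGene00001862), on chromosome IV at 6977508 to 6978765 on the forward strand, had a conservative region at its far end. The summit, at 6978739, lay in an exon 1231 bp after the gene start and 26 bp before the gene end, and the 3′ end of the convergent gene prkl-1, a homologue of the planar polarity gene prickle, was 3 bp away. The joint signal was 69.4, rank 1441, with an IDR of 0.00276. The signal was 31.9 in replicate 1 and 43.1 in replicate 2, with IDR values of 0.298 and 0.452, and neither thresholded list held the region. him-3 is therefore the only one of the 7 genes whose main conservative region neither replicate called by itself. It is also the only member inside one of the stretches of chromosome IV that are dense in piRNA genes, the left one. htp-3 (WBGene00002034), on chromosome I at 4827072 to 4829791 on the forward strand, had no conservative region. Its strongest joint ranked region had a signal of 48.6 at rank 3991 and an IDR of 0.171, and its summit, 698 bp upstream, lay in an exon of tofu-4, a gene needed to make piRNAs. No region of replicate 1's ranked list overlapped it, and that of replicate 2 had a signal of 17.5 and an IDR of 0.700.

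msh-5 (WBGene00003421), on chromosome IV at 13155233 to 13164054 on the forward strand, had a pair of conservative regions on either side of its start. The main summit, at 13154835, was 398 bp upstream, with a joint signal of 104, rank 647 and an IDR of 0.000735. In the replicates' own ranked lists the signal was 70.9 in replicate 1, which called the region, and 33.9 in replicate 2, where the IDR was 0.0127, just outside the limit of 0.01. The second summit lay in an exon 302 bp after the start, with a signal of 64.3, rank 1620 and an IDR of 0.00760, and neither replicate's thresholded list held it. The main summit was 394 bp from the start of crld-1, a gene on the other strand, and 398 bp from that of msh-5, so the start nearest to it is not that of msh-5.

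All 3 meiotic kleisin genes had a conservative region upstream of the start. rec-8 (WBGene00004333), on chromosome IV at 13349122 to 13353193 on the reverse strand, had the strongest of them. Its joint signal was 137, rank 377, with an IDR of 4.31e-05 and a summit at 13353449, 256 bp upstream of the gene start. The signal was 69.8 in replicate 1 and 82.3 in replicate 2, at ranks 494 and 314, and both replicates called the region. The summit was 274 bp from the start of mex-5, which encodes a CCCH zinc-finger protein of embryonic polarity and lies on the other strand. coh-3 (WBGene00000592), on chromosome V at 14457422 to 14460141 on the forward strand, had a joint signal of 100.3, rank 693 and an IDR of 0.000416 at a summit, 14457267, 155 bp upstream. Its signal was 52.9 in replicate 1 and 44.1 in replicate 2, and both replicates called it. The other start in the same interval, that of the kinesin-5 gene bmk-1, was 283 bp from the summit. coh-4 (WBGene00021560), on chromosome V at 4169912 to 4175640 on the reverse strand, had a joint signal of 99.0, rank 711 and an IDR of 0.00237 at a summit, 4175841, between its own start and that of pid-5, which lie 242 bp apart. Its signal was 55.0 in replicate 1, which called the region, and 29.5 in replicate 2, which did not and gave it an IDR of 0.50. The summit was 41 bp from the start of pid-5, a gene of piRNA-induced silencing, and so was nearer to pid-5 than to coh-4. A further conservative summit of coh-4 lay in an exon 66 bp before the gene end, and also in an exon of Y45G5AM.7. Its signal of 12.1 placed it 2068 of 2134 in the conservative list and 59604 of 79981 in the joint ranked list, while its joint IDR was 0.00663. The overlapping regions had signals of 37.4 in replicate 1 and 27.1 in replicate 2, and neither replicate called them.

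The bases around the main summits of rec-8, coh-3, coh-4 and msh-5 that lie in no annotated exon are given here, to show the letters at summits that lie between the start of a meiosis gene and that of a neighbour. The summits of syp-3 and syp-4 also lie between such starts, and their bases are not shown here; neither of their windows held TACGGTA or GCGC, and that of syp-4 held CGCG. The sequences shown were read from the RefSeq genome of the same assembly, run 5′ to 3′ on the strand of the named gene and carry in capitals each GCGC, CGCG and TACGGTA on either strand. The rec-8 sequence is chrIV:13353399-13353499, reverse strand; coh-3 is chrV:14457217-14457317, forward strand; coh-4 is chrV:4175791-4175881, reverse strand; and msh-5 is chrIV:13154785-13154885, forward strand.
rec-8: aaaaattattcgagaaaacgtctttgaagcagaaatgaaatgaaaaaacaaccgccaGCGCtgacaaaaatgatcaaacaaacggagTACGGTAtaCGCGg
coh-3: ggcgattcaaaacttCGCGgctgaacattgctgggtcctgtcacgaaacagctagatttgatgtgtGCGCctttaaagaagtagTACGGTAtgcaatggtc
coh-4: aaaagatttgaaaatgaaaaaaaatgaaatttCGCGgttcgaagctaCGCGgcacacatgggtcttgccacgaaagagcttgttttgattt
msh-5: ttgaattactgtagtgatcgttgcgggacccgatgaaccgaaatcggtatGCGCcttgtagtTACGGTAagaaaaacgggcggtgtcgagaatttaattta

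The 7-letter run TACGGTA stood in 3 of the 7 members' windows, those of rec-8, coh-3 and msh-5, in the same orientation relative to the named gene. It was picked after the sequences were read, and so was the marking of GCGC and CGCG, and none of the counts is a test. In windows of 50 bp to either side of the main summits of the 7 genes with a conservative region, GCGC was in 3 and CGCG in 4, on either strand, where CGCG and GCGC can overlap. Over all 2134 conservative summits the shares were 3.61% for TACGGTA, 28.1% for GCGC and 28.4% for CGCG. Over windows of the same length centred 200 bp upstream of all 19973 protein-coding genes they were 1.77%, 12.2% and 11.2%. A further 4 letter runs were searched in the same way: AATT and AAAAAA, which hold only A and T, the bases AT-hook proteins are known to prefer, and TTTGAA and TTTNNCGC, which also hold G or C. AATT was in 5 of the 7 windows, 64.5% of conservative windows and 76.2% of upstream windows. AAAAAA was in 3 of 7, 30.0% and 45.7% of the same windows. TTTGAA was in 4 of 7, 20.5% and 29.8%, and TTTNNCGC in 1 of 7, 9.65% and 6.85%. The longest unbroken run of A and T had a median of 9 bp in the members' windows, 8 bp at all conservative summits and 9 bp upstream of all genes. A match is a run of letters only, not a bound site.

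The A+T content of the members' summits lay on both sides of that of their surroundings. Within 50 bp to either side of the main summit it was 45.5% for syp-4, 49.5% for syp-3 and 52.5% for coh-3, below the means of 65.8%, 70.8% and 64.4% in windows 500 bp to either side. It was 61.4% for rec-8, 61.4% for coh-4, 55.4% for msh-5 and 71.3% for him-3, above flanks of 51%, 58.4%, 52.5% and 63.4%. Thus 3 of the 7 summits had less A+T than their flanks and 4 had more, with a median of 55.4% at the members' summits. Over all conservative summits the median was 57.4%, against 64.4% in their flanks, and 67.6% of summits had less A+T than their flanks and 31.3% more. No member lies in the right piRNA-dense stretch of chromosome IV, and over conservative summits outside it the median was 54.5%. The whole genome is 64.6% A+T. Of the genes without a conservative region, syp-1 and syp-2 had 65.3% and 69.3% at the strongest joint ranked summit, and htp-3 had 46.5%.

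**Figure D2:**
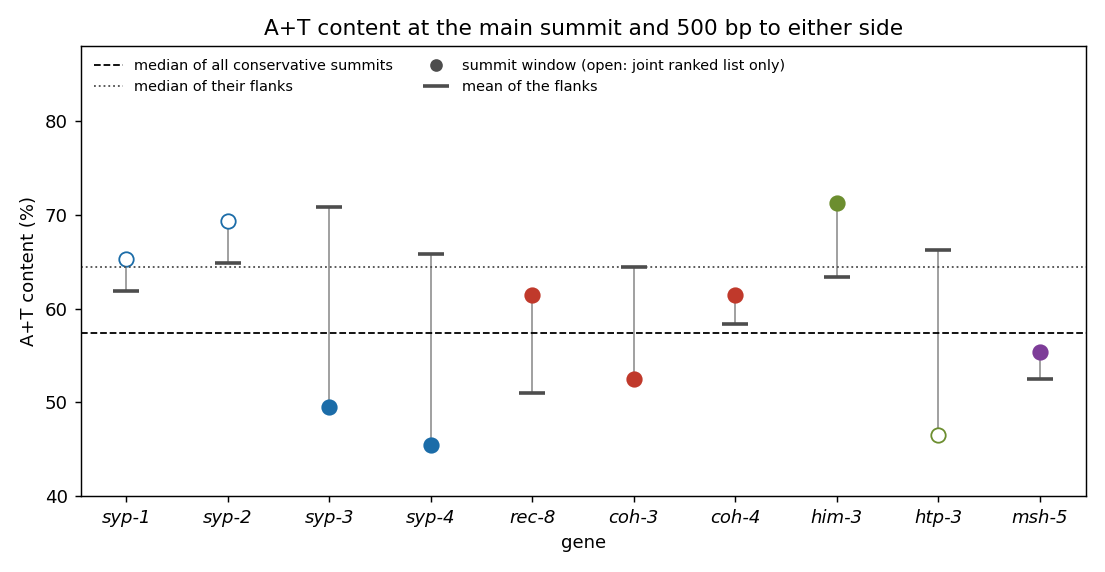
A+T content (%) within 50 bp to either side of the main summit of each gene (circles, open where the region is in the joint ranked list only, coloured by role) and the mean of the windows 500 bp to either side (dashes). The dashed line is the median of all conservative summits, 57.4%, and the dotted line that of their flanks, 64.4%; syp-3, syp-4, coh-3 and htp-3 lie below their flanks and the other 6 genes above.

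coh-3 and coh-4 encode closely similar kleisins, and reads from shared sequence could be placed on either gene. Their coding sequences, of 1821 and 1827 bp, were identical at 89.2% of aligned positions. Their main regions lie outside the coding sequence and, at 324 bp each, were identical at 58.6%, with a longest shared run of 17 bp. The other 20 pairs among the main regions of the 7 genes ranged from 41.7% to 53.8%. How reads that map to more than one place were handled is not stated in the labels or headers.

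The neighbours of most members shared an arrangement, described here after the summits were known and not independent of how the genes were chosen. For 9 of the 10 genes, all but syp-1, the nearest coding gene upstream on the other strand started within 2000 bp, so that the pair is transcribed away from a common interval of 190 to 792 bp. Such a neighbour was found for 90% of the members, 48.5% of the 68 other meiosis genes described further on and 27.8% of all protein-coding genes. All 6 upstream main summits lay between the starts of such a pair: syp-3 with F39H2.3, syp-4 with H27M09.5, rec-8 with mex-5, coh-3 with bmk-1, coh-4 with pid-5 and msh-5 with crld-1. Among all 712 genes with an upstream conservative summit, 50% had such a neighbour and 44.2% had the summit between the starts. Of the 68 other meiosis genes, 7 had an upstream conservative summit and 3 (4.41%) had a conservative summit between the starts of such a pair. In rec-8 and mex-5 the summit lay 256 and 274 bp from the starts, in syp-4 and H27M09.5 273 and 279 bp, and in msh-5 and crld-1 398 and 394 bp. A summit in such an interval is counted for both genes of the pair, and peak positions cannot tell which of them it goes with. Neighbours of the weaker or absent regions included pgl-1, which encodes a P granule protein, beside him-3, tofu-4 beside htp-3, and cox-16, a cytochrome c oxidase assembly gene, beside syp-2.

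The replicates gave fewer members when each was read alone. Replicate 1's own thresholded list had a summit in the window of 5 genes, syp-4, rec-8, coh-3, coh-4 and msh-5, where the rule took in 4.09% of all protein-coding genes. Replicate 2's own list had one in 4 genes, syp-3, syp-4, rec-8 and coh-3, where it took in 3.59%. The 3 genes in both were syp-4, rec-8 and coh-3, against 2.65% of all protein-coding genes. Neither labels nor headers say whether the lists share a scale, so ranks are compared within each list. The lists differ in length, with 49110 ranked regions in replicate 1 and 44508 in replicate 2. coh-3 ranked 871 in replicate 1 and 984 in replicate 2. The replicates' ranks were farther apart for coh-4, with 799 in replicate 1 and 2742 in replicate 2, for him-3, with 2772 and 1046, and for msh-5, with 479 and 1840. For the 7 genes with a conservative region, the replicates' own summits lay 0 to 210 bp from the joint summit, with a median of 15.5 bp.

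**Figure D3:**
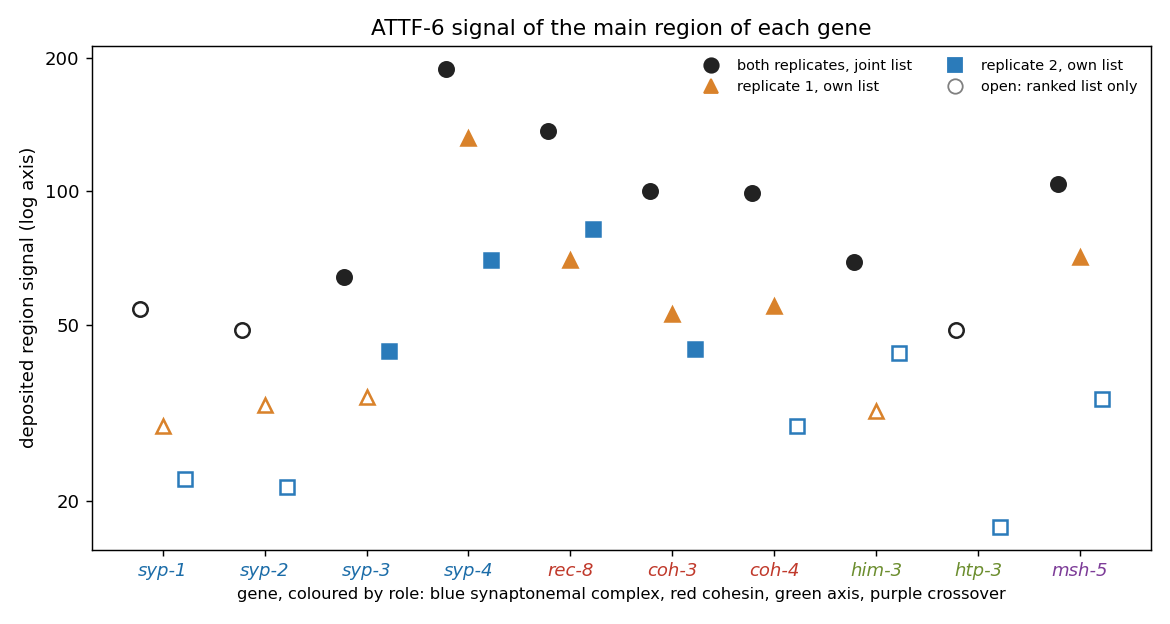
Deposited signal (log axis) of the main region of each gene in the joint list (circles), replicate 1's own list (triangles) and replicate 2's own list (squares), filled where a thresholded list holds the region and open where only a ranked list does. All 3 marks are filled for syp-4, rec-8 and coh-3; htp-3 has no replicate 1 mark because no region overlapped there.

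Placed among all protein-coding genes by the strongest joint ranked signal in the same window, the members ran from the top 0.721% to the top 12.2%. syp-4 stood highest, followed by rec-8 at 1.38%, msh-5 at 2.37%, coh-3 at 2.56% and coh-4 at 2.62%. him-3 was at 5.12%, syp-3 at 6.03%, syp-1 at 8.94%, and syp-2 and htp-3 both at 12.2%. Among the 10 members, coh-4, coh-3 and msh-5, with signals of 99.0, 100.3 and 104 in the joint ranked list, are next to one another in this order. A joint value has no replicate spread of its own, so whether neighbours in the order differ cannot be said. The median strongest signal was 84.2 over the 10 members, 39.5 over the 61 other meiosis genes with a region and 32.2 over the 15238 protein-coding genes with a region. The genes were listed with these values known, so this order is a description. Of the members' main regions, the nearest to the IDR limit of 0.01 were that of him-3 inside it, at 0.00276, and that of syp-1 outside it, at 0.0318. The further conservative summits of coh-4 and msh-5 were nearer to it, at 0.00663 and 0.00760. With joint ranked regions up to an IDR of 0.05, 9 of the 10 genes had a summit in the window, all but htp-3, where 11.0% of all protein-coding genes did.

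**Figure D4:**
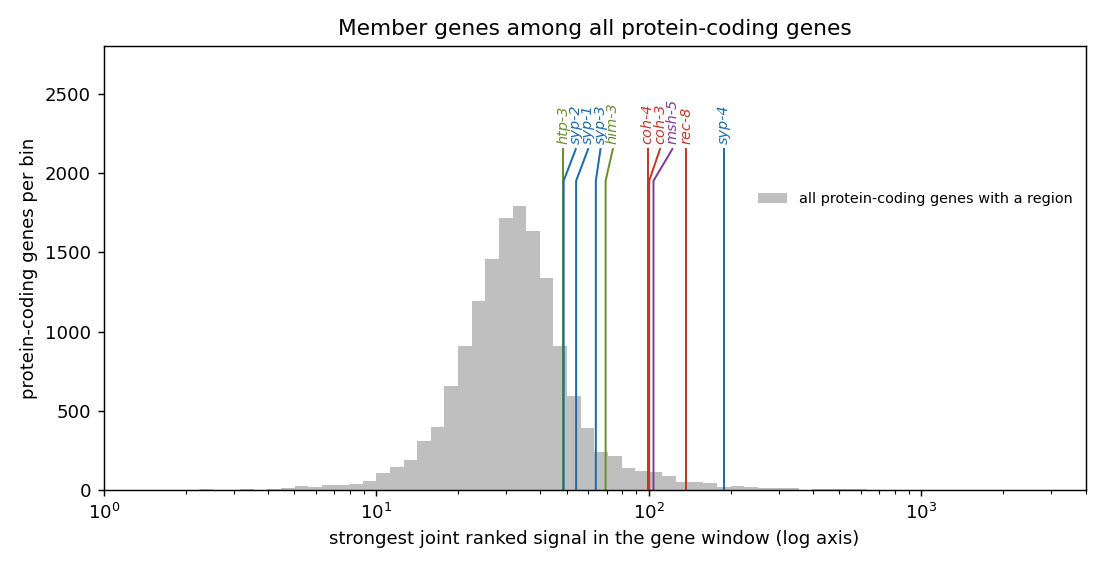
Histogram of the strongest joint ranked signal in the gene window (log axis) over all protein-coding genes with a region, with lines at the 10 member genes (blue synaptonemal complex, red cohesin, green axis, purple crossover). The median over all genes was 32.2; the members lie between 48.6 for htp-3 and 189 for syp-4.

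Window length and position in the genome did not change the background much. Among the 13587 protein-coding genes whose windows are as long as those of the members, 6.31% had a conservative summit, and among the 10689 on the members' chromosomes outside the right piRNA-dense stretch of chromosome IV, 6.06% did. No member lies in that stretch. The nearest members, rec-8 and msh-5, have their gene starts 146808 and 344768 bp before it.

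The other meiosis genes were taken from a list of 72 names for axis, cohesin, synaptonemal complex assembly, pairing, DNA break, strand exchange and crossover genes, which come to 68 genes. A conservative summit lay in the window of 7 of the 10 members, 10 of these 68 genes (14.7%) and 6.35% of all protein-coding genes. By role the 10 were 3 of 9 cohesin subunits and regulators, 2 of 8 genes of the synaptonemal complex and its assembly, 2 of 12 DNA break genes, 3 of 10 strand exchange genes, and none of the 16 other crossover, 10 pairing and 3 other axis genes. The strongest was rpa-2, a subunit of the single-strand DNA binding complex RPA, with a joint signal of 197 at 658 bp upstream, and both replicates called it. wapl-1, which encodes a protein that releases cohesin from chromosomes, was the other one that both replicates called, with a signal of 94.4 at 152 bp upstream. The synaptonemal complex genes syp-5 and syp-6 had signals of 109 at 179 bp and 89.3 at 155 bp upstream, called by replicate 1 and not by replicate 2. For syp-6 the start of mei-2, a katanin subunit gene, was nearer, at 118 bp from the summit. rpa-1, which encodes the large RPA subunit, had a signal of 87.3 at 498 bp upstream, with another gene's start nearer, and replicate 1 called it. nbs-1, of the break-processing MRN complex, had a signal of 86.3 at 60 bp after the start, and dsb-2, which is needed for programmed breaks, 64.1 at 176 bp upstream, and replicate 2 called both. brd-1, the BRCA1 partner gene, had a signal of 81.2 at 836 bp after the start and near a short RNA gene, and replicate 1 called it. Neither replicate alone called the regions of the cohesin loader gene scc-2, with a signal of 85.8 at 8319 bp after the start and 148 bp from another of its annotated transcript starts, or of the cohesin subunit gene smc-3, with 67.6 at 820 bp upstream in introns of other genes.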

How the data were processed

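Per the labels, ATTF-6 tagged with EGFP was immunoprecipitated from sonicated chromatin of 2 biological replicates, and the assembly was ce11. Not given in the sources used here: aligner, peak caller, versions. The authors deposited 8 peak lists: for both replicates together a conservative and another thresholded list, each with a ranked list of all candidate regions, and for each replicate 1 thresholded and 1 ranked list. The deposited signal column gives each region's enrichment in the authors' units, and the ranked lists also give the deposited global irreproducible discovery rate as −log10, which was turned back into a rate. Thresholded regions took their rate from the matching ranked region. A further 8 columns of each ranked list with values of single inputs were not used. No read totals were used, so depth is unknown and no interval is given.

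A gene was called where a summit lay from 1000 bp upstream of its start to its end (Ensembl release 115, Python 3.11.15, NumPy 2.4.6). Of the 10 members, 8 have the same start and end in the RefSeq annotation, so distances for the others could differ there. A region was taken as the same in a replicate where at least 1 bp overlapped. Sequence came from the RefSeq genome of the same assembly, identity from global alignment (Biopython 1.88), and plots from Matplotlib 3.10.9. piRNA-dense stretches of chromosome IV are runs of 250 kb bins with at least 100 piRNA genes. With 1 group of 2 replicates no test was possible. The members and lists were chosen with earlier results of these data known. The rule for named genes took all 10 members, the nearest other gene and coding start of each main region, and the 10 other meiosis genes with a conservative summit. The search for neighbours on the other strand and the letter runs were chosen after values were seen. The counting rules were checked on simulated data. Alternatives were other lists, rates, windows, overlaps, A+T window lengths and each replicate alone.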

Additional observations from a re-analysis of the deposited data

How the results depend on the processing

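The count of members with a conservative summit, 7 of 10, was 7 in the other thresholded joint list, with windows from 500 or 2000 bp upstream and by region overlap. It was 6 in the promoter alone, where him-3 dropped out. It was also 6 with each summit given to its nearest start only, where coh-4 dropped out. When summits close to short RNA genes were set aside, 6 members remained and syp-4 dropped out. The share of all protein-coding genes was 6.77% in the other list, 7.65% by overlap, and 5.49% and 7.90% from 500 and 2000 bp upstream. That share was 4.28% in the promoter alone, 4.82% by nearest start and 5.27% with those summits set aside, beside 6.35% under the main rule. At an IDR of 0.001 or less, the count was 4 members (syp-4, rec-8, coh-3 and msh-5), 5 other meiosis genes and 3.27% of all protein-coding genes. At an IDR of 0.05 or less in the joint ranked list it was 9 members, 17 other meiosis genes and 11.0% of all protein-coding genes. Leaving out either replicate gave 4 to 5 members, 4 to 6 other meiosis genes and 3.59% to 4.09% of all protein-coding genes. The members' median strongest signal was 31.7 to 43.6 in the single replicates' lists and 84.2 in the joint list, and since these lists may not share a scale, the gap is not read as an effect of leaving out a replicate. The median A+T content at the members' summits was 52.9% within 25 bp and 59.7% within 100 bp to either side, in place of 55.4% within 50 bp. The backgrounds over genes with windows as long as the members' and outside the right piRNA-dense stretch were chosen after seeing the data. No paired analysis was possible because the study has 1 group. With unknown depth, no control list and 2 replicates, a region missing from a list is not shown to be unbound.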

Other observations

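Across the 10 gene windows the joint ranked list held 68 summits, from 4 in syp-2, syp-4 and him-3 to 13 in msh-5, which has the longest window. Of these, 10 were in the conservative list. The weak regions lay mostly in exons and introns of the genes themselves, which also make up most of each window. In rec-8, summits 3552 bp and 2634 bp after the gene start had signals of 39.5 and 28.4 and IDR values of 0.259 and 0.494. In syp-4 a summit in an intron 1982 bp after the start had a signal of 41.6 and an IDR of 0.0556. In front of him-3, between 1000 bp upstream and the start, the stronger of the weak regions had a signal of 40.8 and an IDR of 0.192, with its summit in an exon of pgl-1.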
